A study of Mus musculus with 18 samples.

Results

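The pore-forming alpha-1 subunits of voltage-gated calcium channels were followed in forebrain tissue of Chd2+/- mice and their wild-type controls. The members were taken by gene symbol: Cacna1a, Cacna1b, Cacna1c, Cacna1d, Cacna1e, Cacna1g, Cacna1h and Cacna1i, 8 of the 24062 lines of the deposited count table. All 8 were found, and all 8 passed the filter on low counts in every comparison. RNA had been sequenced from the cortex and the medial ganglionic eminence (MGE) of E13.5 C57BL/6 embryos and from P45 hippocampus of the same strain. Each tissue held 3 libraries from wild-type animals (WT) and 3 from animals heterozygous for Chd2 (HET), a gene for a chromatin remodeller, which makes 18 libraries in 6 groups. How the Chd2 allele was made is not given in the sources used here, nor whether a library stands for 1 animal or for pooled tissue. The p-values therefore measure the spread between these libraries, which may be technical. The MGE is a transient embryonic zone that produces cortical interneurons, and the E13.5 cortex is a mixture of dividing progenitors and young neurons.

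Voltage-gated calcium channels open when the membrane is depolarised and let calcium into the cell. The alpha-1 subunit forms the pore and carries the voltage sensor, while the beta and alpha-2-delta subunits bring the channel to the surface and tune its gating. The family has a high-voltage-activated branch, made of the L-type Cav1 channels and the Cav2 channels, and a low-voltage-activated T-type branch, Cav3. In neurons L-type channels couple activity to transcription, P/Q-type and N-type channels trigger transmitter release, and T-type channels support rebound firing and bursting.

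In mm10 coordinates of the GENCODE M21 annotation the L-type genes were Cacna1c (Cav1.2, chromosome 6, 118587240 to 119196418, minus strand) and Cacna1d (Cav1.3, chromosome 14, 30039939 to 30491455, minus strand). The Cav2 genes were Cacna1a (P/Q-type, chromosome 8, 84388440 to 84640246, plus strand), Cacna1b (N-type, chromosome 2, 24603887 to 24763152, minus strand) and Cacna1e (R-type, chromosome 1, 154390731 to 154884501, minus strand). The T-type genes were Cacna1g (Cav3.1, chromosome 11, 94408391 to 94474198, minus strand), Cacna1h (Cav3.2, chromosome 17, 25374285 to 25433783, minus strand) and Cacna1i (Cav3.3, chromosome 15, 80287238 to 80398279, plus strand). Their coding sequences ran from 6.54 kb in Cacna1d to 7.14 kb in Cacna1g, while the union of annotated exons ran from 9.76 kb in Cacna1h to 25.2 kb in Cacna1e. Levels are therefore compared between genes only per kilobase (kb) of the exon union.

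Genes of this family share stretches of coding sequence, and a short read from such a stretch cannot be placed by sequence alone. The longest runs of identical bases between members are shown for 2 T-type pairs, the L-type pair and a Cav2 pair, because these are the places where counts of paralogues could be exchanged. They are written in lower case, 5′ to 3′ on the coding strand, from the GENCODE M21 transcripts, and no base is in capitals.
Cacna1g and Cacna1i (68 bases): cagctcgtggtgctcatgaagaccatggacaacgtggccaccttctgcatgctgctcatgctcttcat
Cacna1h and Cacna1i (50 bases): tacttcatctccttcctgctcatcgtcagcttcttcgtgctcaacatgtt
Cacna1c and Cacna1d (43 bases): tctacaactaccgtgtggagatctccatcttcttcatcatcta
Cacna1a and Cacna1b (35 bases): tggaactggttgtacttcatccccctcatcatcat
Words of 50 bases shared with another member numbered 19 of 10466 in Cacna1g, 20 of 9951 in Cacna1i, 1 of 9845 in Cacna1h and 0 in each of the other 5. Exons on the opposite strand covered 3.81% of the exon union of Cacna1a (Gm16183), 4.67% of Cacna1d (Chdh) and 1.62% of Cacna1h (Tpsg1). Whether the counting used strand is not given in the sources used here, so reads of these stretches cannot be assigned to either gene with certainty.

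The libraries held 26841671 to 38802765 counts, of which the 8 members took 0.00983 to 0.169%. Values are CPM, counts scaled to a common library size, with TMM, a normalization for library composition, over all 18 libraries. Chd2 stood at 153, 163 and 175 CPM in WT and 137, 136 and 144 CPM in HET MGE, at 143, 153 and 145 against 125, 124 and 124 CPM in cortex, and at 74.1, 70.7 and 78.9 against 64.4, 67.5 and 66.0 CPM in hippocampus. Every HET library thus lay below the WT libraries of its tissue. The tissues carried their markers: Nkx2-1, which specifies the MGE, stood at 781 to 947 CPM in MGE and at 1.54 CPM or less elsewhere, Emx1 of the dorsal forebrain at 114 to 184 CPM in cortex, and Camk2a, a kinase of mature excitatory neurons, at 5376 to 6491 CPM in hippocampus. Xist was at 1736 to 1900.0 CPM in the 3 WT MGE libraries and at 1.08 CPM or less in the 3 HET MGE libraries, so sex and genotype cannot be told apart in MGE. In cortex Y-linked genes exceeded Xist in 1 of 3 WT and 2 of 3 HET libraries, and in hippocampus in none of the 6.

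The first comparison was between the tissues of WT animals. For the hippocampus it is also a comparison of ages, and tissue and age cannot be told apart. All 8 members rose in P45 hippocampus against both embryonic tissues, by different amounts: Cacna1i was 24.0-fold higher in hippocampus than in cortex, and Cacna1g was 1.78-fold higher. Between the embryonic tissues 6 of 8 members were lower in MGE than in cortex, and Cacna1b and Cacna1i did not pass the test. In these bulk samples fewer cells of a type and less RNA per cell cannot be told apart.

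Among the L-type genes, Cacna1c stood at 14.0, 16.8 and 16.4 CPM in WT MGE, at 33.7, 30.4 and 26.5 CPM in WT cortex and at 198, 185 and 180.4 CPM in WT hippocampus. The 3 tissues did not overlap, and Cacna1c was 12.3-fold higher in hippocampus than in MGE (log2 fold change 3.62, SE 0.11) and 6.36-fold higher than in cortex (2.67, SE 0.10). Cacna1d stood at 4.87, 4.23 and 5.56 CPM in WT MGE, at 14.0, 13.8 and 16.4 CPM in WT cortex and at 70.8, 76.9 and 72.8 CPM in WT hippocampus. Its tissues did not overlap either, with a rise of 2.36 (SE 0.11) on the log2 scale from cortex to hippocampus and a log2 fold change of -1.59 (SE 0.11) in MGE against cortex.

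Among the Cav2 genes, Cacna1a, whose channel triggers fast release at many central synapses, stood at 25.4, 21.8 and 25.0 CPM in WT MGE, at 29.7, 30.4 and 29.9 CPM in WT cortex and at 308, 351 and 327 CPM in WT hippocampus. The embryonic libraries lay close together, and the step from cortex to hippocampus was 11.2-fold (log2 fold change 3.49, SE 0.082). Cacna1b, the N-type gene, stood at 25.5, 20.6 and 26.3 CPM in WT MGE, at 26.4, 20.8 and 24.6 CPM in WT cortex and at 192, 183 and 176 CPM in WT hippocampus. Its MGE and cortex libraries overlapped, with a log2 fold change of 0.0092 (SE 0.11), and hippocampus was higher than cortex by 2.98 (SE 0.11). Cacna1e, the R-type gene, stood at 16.6, 16.3 and 21.0 CPM in WT MGE, at 67.1, 47.2 and 63.7 CPM in WT cortex and at 442, 509.7 and 467 CPM in WT hippocampus. Cacna1e had the largest step of the 8 between MGE and cortex (log2 fold change -1.73, SE 0.14) and between MGE and hippocampus (4.76, SE 0.15).

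Among the T-type genes, Cacna1g stood at 17.2, 16.4 and 24.2 CPM in WT MGE, at 61.7, 57.0 and 35.8 CPM in WT cortex and at 103, 89.7 and 75.9 CPM in WT hippocampus. Its hippocampal libraries lay above the cortical ones by the smallest step of the 8, a log2 fold change of 0.83 (SE 0.21, edgeR adjusted p = 0.00497). Cacna1h stood at 60.7, 48.4 and 58.1 CPM in WT MGE, at 65.9, 71.7 and 72.1 CPM in WT cortex and at 224, 279.7 and 292 CPM in WT hippocampus. Its MGE level was lower than in cortex by a small margin (-0.33, SE 0.11). Cacna1i stood at 5.25, 3.67 and 5.11 CPM in WT MGE, at 4.72, 5.27 and 5.53 CPM in WT cortex and at 133, 128 and 102 CPM in WT hippocampus. The embryonic libraries of Cacna1i overlapped at a low level, and the step from cortex to hippocampus, a log2 fold change of 4.59 (SE 0.15), was the largest of the 8.

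**Figure D1:**
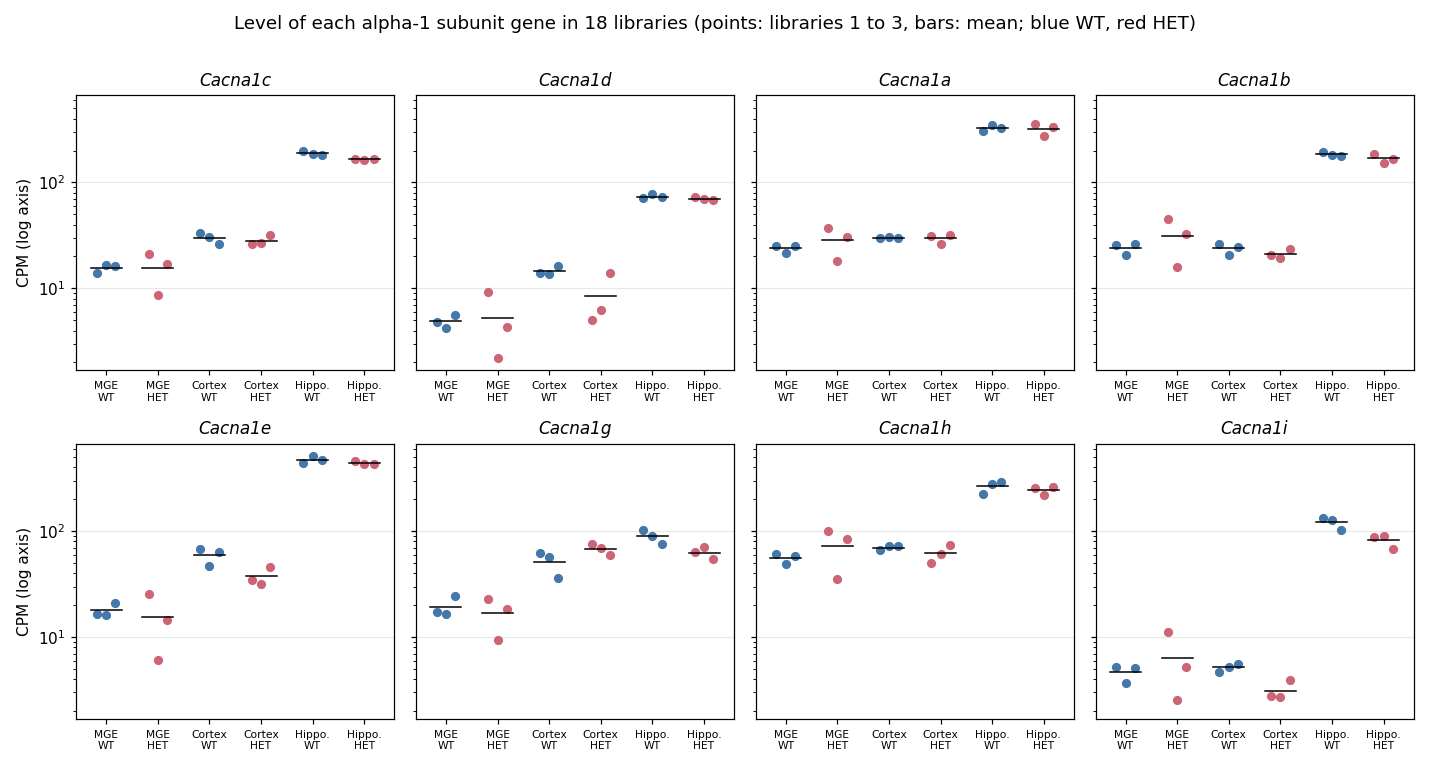
CPM on a log axis of each alpha-1 subunit gene in the 3 libraries of each of the 6 groups (points, WT and HET in separate colours; horizontal bars are means). Each member is highest in hippocampus in WT, the HET cortex and HET hippocampus libraries of Cacna1g overlap, and the 3 HET MGE libraries are spread more widely than the WT ones.

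In the edgeR quasi-likelihood fit of the 9 WT libraries, 8 of 8 members were called higher in hippocampus than in cortex, where 40.2% of 15688 genes were, and 8 of 8 higher than in MGE, where 42.2% were. The median member log2 fold change was 2.82 against cortex and 3.71 against MGE, beside -0.013 and 0.046 over all genes tested. In MGE against cortex 6 of 8 were called lower, where 25.7% of genes were, with a member median of -0.64 beside -0.011. These 3 comparisons share libraries, so their values are given side by side only. The lower calls of Cacna1a (-0.32, edgeR adjusted p = 0.00510) and Cacna1h (edgeR adjusted p = 0.0246) were lost in a fit of all 18 libraries (adjusted p = 0.159 and 0.316). That of Cacna1h was also lost without MGE WT 2 (edgeR adjusted p = 0.0892), cortex WT 2 (0.0623) or cortex WT 3 (0.0670). The adjusted p ranged from 0.00238 to 0.159 for Cacna1a and from 0.00908 to 0.316 for Cacna1h over the alternatives run.

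The same comparisons within HET animals use none of the WT libraries. Y-linked genes exceeded Xist in all 3 HET MGE libraries and in none of the 3 HET hippocampal libraries. Between HET hippocampus and HET MGE, sex therefore cannot be told apart from tissue and age. In HET, 7 of 8 members were called higher in hippocampus than in cortex (38.6% of 15703 genes), 8 of 8 higher than in MGE (40.6%), and 3 of 8, Cacna1c, Cacna1e and Cacna1g, lower in MGE than in cortex (18.7%). The member medians were 3.03, 3.46 and -0.37, beside -0.040, 0.011 and -0.014 over all genes. Cacna1g was at 76.1, 69.7 and 59.5 CPM in HET cortex and at 63.2, 70.1 and 54.3 CPM in HET hippocampus. These libraries overlapped, and the log2 fold change was -0.12 (SE 0.25, edgeR adjusted p = 0.665), where WT gave 0.83. The difference between the WT and HET steps was tested as a contrast of all 18 libraries and was -0.92 (SE 0.36), with an unadjusted p of 0.0211 and an edgeR adjusted p of 0.341. For MGE against cortex in HET, DESeq2 called a further member, Cacna1i, higher in MGE (DESeq2 adjusted p = 0.0316), where edgeR gave 1.00 (SE 0.42, adjusted p = 0.0889). That DESeq2 fit called 5938 of 15703 genes, 2828 of them higher in MGE. The calls changed with single libraries. Without MGE HET 2, edgeR called 6 members, in a fit that called 5174 of 16004 genes. Among them Cacna1b (0.89, edgeR adjusted p = 0.0027), Cacna1h (0.56, 0.0298) and Cacna1i (1.38, 0.0086) were higher in MGE. Without cortex HET 3 it called 1, Cacna1g, in a fit that called 5698 of 15965 genes. The call of Cacna1e (-1.29, SE 0.38, edgeR adjusted p = 0.0241) was also lost without MGE HET 3 (0.0843), without cortex HET 1 (0.0593) and, with every library kept, without the filter on low counts (0.0702), and the adjusted p of Cacna1i ranged from 0.00856 to 0.481.

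The order of the members per kb of the exon union describes the transcript pool, and it depends on the length chosen. In WT MGE the mean level was highest in Cacna1h (5.71 ± 0.662 CPM per kb, SD, n = 3), followed by Cacna1b (2.43 ± 0.312), Cacna1a (2.11 ± 0.173) and Cacna1g (1.90 ± 0.422). Cacna1c, Cacna1e, Cacna1i and Cacna1d followed, from 0.743 down to 0.387 CPM per kb. Cacna1h stood clear of the rest, while Cacna1b overlapped Cacna1a, Cacna1a overlapped Cacna1g, Cacna1c overlapped Cacna1e and Cacna1i overlapped Cacna1d. In HET MGE each gene overlapped its neighbour in the order.

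In WT cortex Cacna1h (7.16 ± 0.357 CPM per kb) and Cacna1g (5.08 ± 1.36) led without overlap, ahead of Cacna1a, Cacna1b and Cacna1e (2.63 down to 2.35), where neighbours overlapped. Cacna1c (1.43) and Cacna1d (1.17) overlapped as well, and Cacna1i (0.524) was lowest. In HET cortex the mean of Cacna1g (6.75 ± 0.826) stood above that of Cacna1h (6.35 ± 1.25), with overlapping libraries. In WT hippocampus Cacna1a (28.8 ± 1.89) and Cacna1h (27.2 ± 3.71) led and overlapped, then came Cacna1e (18.7) with Cacna1b (18.5), Cacna1i (12.3), Cacna1c (8.86) with Cacna1g (8.82), and last Cacna1d (5.82). The order of the means was the same in HET hippocampus. With the coding length in place of the exon union, a choice made after seeing the data, Cacna1e took the first place in WT hippocampus, while Cacna1h stayed first in WT MGE and WT cortex. In WT cortex the coding length moved Cacna1e from place 5 to 2, Cacna1c from 6 to 4, Cacna1g from 2 to 3, Cacna1a from 3 to 5 and Cacna1b from 4 to 6. In WT MGE it exchanged Cacna1c with Cacna1e and Cacna1i with Cacna1d, and the longest transcript exchanged Cacna1b with Cacna1a. With the coding length or the longest transcript, 48 ranks moved and 48 stayed over all groups.

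T-type genes held 55.8 ± 0.957% of the summed CPM per kb of the 8 members in WT MGE and 56.1 ± 3.31% in WT cortex, but 37.4 ± 0.240% in WT hippocampus (SD, n = 3). Cav2 genes held 36.3 ± 0.252%, 32.5 ± 3.01% and 51.2 ± 0.317% in the same order, and the L-type genes 7.87 ± 0.933%, 11.4 ± 0.335% and 11.4 ± 0.470%. For the T-type and Cav2 shares the hippocampal libraries lay outside the range of the embryonic WT libraries. With the coding length the T-type share was 47.2, 43.6 and 27.4%. In HET the T-type share was 56.6 ± 2.03% in MGE, 62.2 ± 2.92% in cortex and 34.3 ± 0.967% in hippocampus. In hippocampus the HET range (33.6 to 35.4%) lay below the WT range (37.2 to 37.6%), a difference that was not tested.

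**Figure D2:**
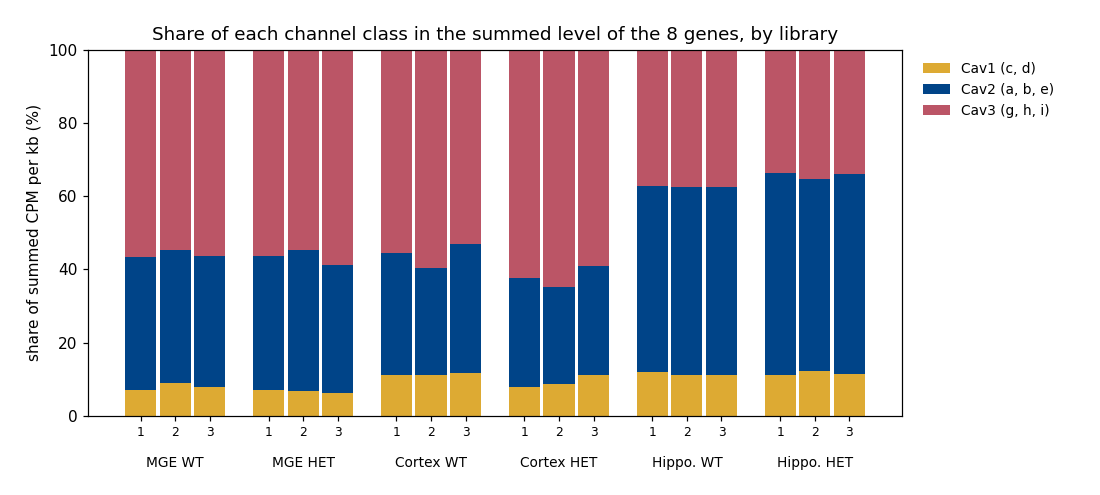
Share (%) of the L-type Cav1 (c, d), Cav2 (a, b, e) and T-type Cav3 (g, h, i) genes in the summed CPM per kb of the 8 members in each library. The T-type share is 53.0% or more in every WT embryonic library and 37.6% or less in every hippocampal library.

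The sequence before the start of Cacna1e and Cacna1i is shown because these members had the largest fold changes between MGE and hippocampus. Each line holds the 250 bases before a RefSeq transcript start of GRCm38.p6, 5′ to 3′ on the gene's strand, in lower case. Capitals would mark the motifs named here, and none occurred. The Cacna1e window lies at chr1:154725921-154726170 on the minus strand, inside the annotated gene span, and the Cacna1i window at chr15:80286988-80287237 on the plus strand.
Cacna1e: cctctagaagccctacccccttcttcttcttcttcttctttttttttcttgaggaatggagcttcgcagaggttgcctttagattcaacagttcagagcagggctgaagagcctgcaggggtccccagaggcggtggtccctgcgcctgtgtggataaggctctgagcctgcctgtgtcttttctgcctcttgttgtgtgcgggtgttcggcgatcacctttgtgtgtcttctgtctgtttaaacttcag
Cacna1i: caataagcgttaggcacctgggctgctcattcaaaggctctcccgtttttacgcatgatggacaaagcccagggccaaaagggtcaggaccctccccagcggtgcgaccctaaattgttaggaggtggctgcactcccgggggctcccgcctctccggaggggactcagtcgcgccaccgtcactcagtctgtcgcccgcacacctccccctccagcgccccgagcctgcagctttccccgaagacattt
The motifs searched on both strands were the GC box GGGCGG (in 35.7% of 32851 promoters of 300 bases), TATAAA (13.6%), the cyclic AMP response element TGACGTCA (1.79%), the RE1 word TTCAGCACC (0.371%) and the E-box CAGCTG (16.3%). The full 300-base windows held 11 CpG in Cacna1e and 23 in Cacna1i, beside a median of 7 over all promoters. The window of Cacna1b held 35 CpG and 3 GC boxes. Those of Cacna1c held 57, 7 and 3 CpG, with 6, 0 and 0 GC boxes. Those of Cacna1d held 63 and 4 CpG, with 6 and 0 GC boxes and 0 and 3 matches to TATAAA. Promoters of Cacna1a, Cacna1g and Cacna1h were not used here.

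Over the 18 libraries, the genes with the highest Pearson r of log2 CPM to each member were Gramd1b (0.998) and Lrrn2 (0.997) for Cacna1c, and Fabp3 (0.994) and Ica1l (0.992) for Cacna1d. For the Cav2 genes they were Rab6b (0.999) for Cacna1a, Shank1 (0.998) and Unc13a (0.994) for Cacna1b, and Jph4 (0.995) and Dnajc6 (0.995) for Cacna1e. For the T-type genes they were Adra2a (0.985) and Ptprg (0.979) for Cacna1g, Sh3bp5 (0.985) and Tanc2 (0.985) for Cacna1h, and Shank1 (0.995) and Pde4a (0.992) for Cacna1i. The libraries fall into 3 tissue blocks and 14917 genes were compared, so these values describe shared steps between tissues and carry no test. Among the members themselves, r was 0.916 or more in each pair without Cacna1g and 0.558 to 0.797 in each pair with it.

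The second comparison was that of the series, HET against WT within each tissue. In MGE none of the 8 members was called by edgeR (0.0479% of 14624 genes were), 0 had an unadjusted p under 0.05 (4.51% of genes), and DESeq2 and limma-voom called 0. The member median was 0.18 beside 0.0082 over all genes. The log2 fold changes were -0.016 (SE 0.29) for Cacna1c, 0.11 (0.48) for Cacna1d, 0.25 (0.24) for Cacna1a, 0.38 (0.37) for Cacna1b and -0.23 (0.51) for Cacna1e. Those of the T-type genes were -0.17 (SE 0.33) for Cacna1g, 0.39 (0.38) for Cacna1h and 0.43 (0.51) for Cacna1i.

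The HET libraries spread more widely than the WT libraries, and the members were high or low together in them. In HET MGE 1, 2 and 3, Cacna1h stood at 99.5, 35.6 and 83.5 CPM, Cacna1b at 45.5, 15.9 and 32.6 CPM, and Cacna1a at 37.3, 18.1 and 30.5 CPM. Cacna1e stood at 25.6, 6.02 and 14.4 CPM, Cacna1g at 23.1, 9.49 and 18.6 CPM and Cacna1c at 20.9, 8.73 and 17.0 CPM. Cacna1d stood at 9.31, 2.21 and 4.29 CPM and Cacna1i at 11.2, 2.55 and 5.18 CPM. HET 2 was the lowest of the 6 MGE libraries for 8 of 8 members and HET 1 the highest for 7 of 8, the exception being Cacna1g. The ratio of HET 1 to HET 2 ran from 2.06 in Cacna1a to 4.40 in Cacna1i with a median of 2.83, which 2.89% of 16125 genes exceeded. These 2 libraries are the extremes of the members themselves, so that share was partly set by the choice and carries no test. The ratios of all genes came from log2 CPM with a prior count of 2, which shrinks ratios of low counts, and those of the members from plain CPM. The ratio of the highest to the lowest WT library had a median of 1.28. The mean log2 CPM of the neuron markers was also highest in HET 1 and lowest in HET 2 of the HET libraries. It was 7.89, 7.10 and 7.57 in HET 1, 2 and 3, with a WT range of 7.45 to 7.83. Of the 10 markers, Tubb3, Elavl3, Map2 and Elavl4 did not follow the order of that mean over the HET libraries. The median HET 1 to HET 2 ratio was 1.64 for the 10 neuron markers and 0.825 for the 10 progenitor markers. A fit with the neuron marker level as a covariate, added after seeing the data, called 0 members, as did the fit without it.

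**Figure D3:**
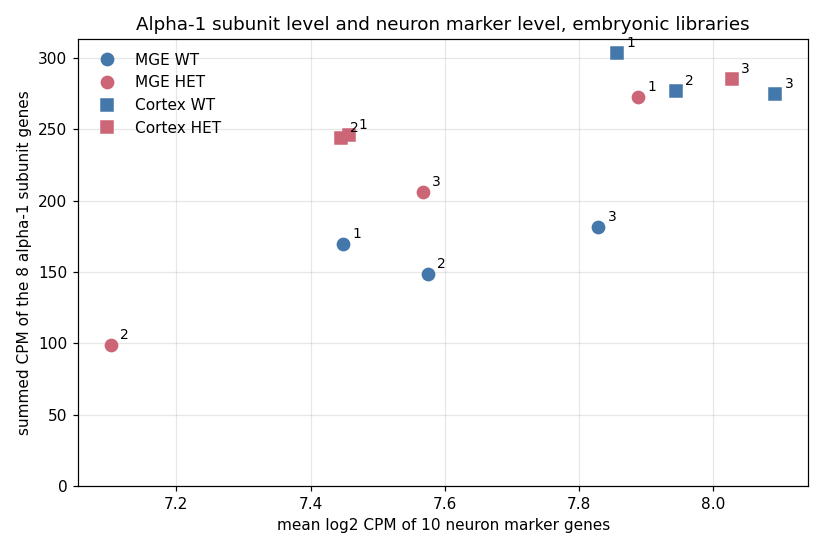
Summed CPM of the 8 alpha-1 subunit genes against the mean log2 CPM of the neuron marker genes, 1 point for each embryonic library (WT and HET in separate colours). HET MGE 2 has the lowest member sum (98.6 CPM) and the lowest neuron marker level, and HET MGE 1 has the highest member sum of the MGE libraries (272 CPM).

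In cortex none of the 8 members was called by edgeR, DESeq2 or limma-voom, and edgeR called 0% of 14757 genes. An unadjusted p under 0.05 was reached by 2 of 8 (7.89% of genes), Cacna1e and Cacna1i. Their HET libraries all lay below the WT libraries, which 5.87% of genes showed. The member median was -0.16 beside 0.014, and 7 of 8 values lay below 0 (47.7% of genes).

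Cacna1e stood at 34.4, 31.6 and 46.1 CPM in HET cortex 1, 2 and 3, beside 47.2 to 67.1 CPM in WT (-0.66, SE 0.18, edgeR adjusted p = 0.578). Cacna1i stood at 2.75, 2.74 and 3.90 CPM beside 4.72 to 5.53 CPM (-0.71, SE 0.22, edgeR adjusted p = 0.578). In both genes HET 3 was the HET library nearest to WT. Cacna1d stood at 5.06, 6.23 and 14.1 CPM in HET beside 13.8 to 16.4 CPM in WT. In Cacna1d, HET 3 lay within the WT range while HET 1 and HET 2 lay below it, and the log2 fold change was -0.78 (SE 0.36, edgeR adjusted p = 0.578). Cacna1g went the other way, at 76.1, 69.7 and 59.5 CPM in HET beside 35.8 to 61.7 CPM in WT (0.42, SE 0.20, edgeR adjusted p = 0.578), with HET 3 inside the WT range. Cacna1a (30.9, 26.1 and 31.8 CPM in HET), Cacna1b (20.5, 19.3 and 23.6), Cacna1c (26.0 to 31.7) and Cacna1h (50.2, 61.3 and 74.6) overlapped WT, with log2 fold changes of -0.0067 (SE 0.11), -0.17 (0.14), -0.084 (0.13) and -0.16 (0.14).

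HET cortex 3 stood apart in these values. It was the highest of the HET libraries for 7 of 8 members and the lowest for Cacna1g. It stood at 2.50 times the mean of HET 1 and HET 2 in Cacna1d, 1.40 times in Cacna1e and 1.42 times in Cacna1i. The mean log2 CPM of the neuron markers in HET 1, 2 and 3 was 7.46, 7.45 and 8.03, with a WT range of 7.86 to 8.09. That of the progenitor markers was 8.32, 8.17 and 7.72 in HET 1, 2 and 3 and 7.75 to 7.93 in WT. Without HET 3, edgeR called 4 members lower, Cacna1d (-1.36, edgeR adjusted p = 7.48e-04), Cacna1e (-0.83, 0.00931), Cacna1i (-0.89, 0.0146) and Cacna1h (-0.31, 0.0343). That fit called 4598 of 14961 genes, 1944 lower and 2654 higher. A separate fit kept HET 3 and took the neuron marker level as a covariate. In it the differences of Cacna1d, Cacna1e and Cacna1i were -0.24, -0.44 and -0.45. It called 0 members, as did the fit of the same libraries without the covariate. The covariate was itself below the WT range in HET 1 and HET 2, so it is not independent of genotype. Over the alternatives run, the adjusted p ranged from 7.48e-04 to 0.999 for Cacna1d, 0.00931 to 0.999 for Cacna1e, 0.0146 to 0.999 for Cacna1i and 0.0343 to 0.999 for Cacna1h.

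In hippocampus all 8 log2 fold changes lay below 0 (48.6% of 15283 genes did), with a member median of -0.11 beside 0.0047 over all genes. edgeR and limma-voom called 0 of 8, and edgeR called 1.07% of genes. An unadjusted p under 0.05 was reached by 3 of 8 (15.6% of genes), Cacna1g, Cacna1i and Cacna1c. These 3 had HET libraries that all lay below WT, which 11.7% of genes showed. In Cacna1i the WT libraries held 133, 128 and 102 CPM and the HET libraries 87.5, 89.2 and 68.3 CPM, a log2 fold change of -0.56 (SE 0.14, edgeR adjusted p = 0.130). In Cacna1g the WT libraries held 103, 89.7 and 75.9 CPM and the HET libraries 63.2, 70.1 and 54.3 CPM, a log2 fold change of -0.51 (SE 0.13, edgeR adjusted p = 0.144). Both are T-type genes, and the third T-type gene, Cacna1h, overlapped WT.

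In Cacna1c the WT libraries held 198, 185 and 180.4 CPM and the HET libraries 168, 164 and 165 CPM, a log2 fold change of -0.18 (SE 0.058, edgeR adjusted p = 0.179) with a narrow spread. The other 5 overlapped WT: Cacna1d (73.1, 69.4 and 68.4 CPM in HET), Cacna1a (355, 276 and 333), Cacna1b (185, 154 and 167), Cacna1e (455, 426 and 429.8) and Cacna1h (256, 218 and 262). Their log2 fold changes ran from -0.12 (SE 0.073) in Cacna1b to -0.030 (SE 0.090) in Cacna1a. DESeq2 called Cacna1g (DESeq2 adjusted p = 9.27e-04) and Cacna1i (1.44e-04), in a fit that called 445 genes. Without WT 3, edgeR called the same pair (adjusted p = 0.0330 and 0.0307), in a fit that called 119 of 15482 genes. With the neuron marker level as a covariate, added after seeing the data, Cacna1g, Cacna1i and Cacna1c had -0.44, -0.53 and -0.16. No member was called in that fit, which called 314 of 15283 genes. Over the alternatives run, the adjusted p ranged from 9.27e-04 to 0.980 for Cacna1g and from 1.44e-04 to 0.987 for Cacna1i, the highest in a fit of all 18 libraries.

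Markers of hippocampal fields and of vascular mural cells were read from the same hippocampal fit, and the lists did not all go one way. Among all genes tested in hippocampus, 48.6% lay below 0, 15.6% had an unadjusted p under 0.05 and 1.07% were called by edgeR. The 4 CA1 markers all lay below 0 with a median of -0.35, and 3 had an unadjusted p under 0.05. In 3 of the 4, all HET libraries lay below WT (11.7% of genes). Fibcd1 (-0.55, SE 0.072, edgeR adjusted p = 0.00482) and Mpped1 (-0.39, SE 0.080, edgeR adjusted p = 0.0461) were called lower in HET. The summed CPM of the CA1 list was 804 to 1233 in WT and 809.9 to 881 in HET. Within that list Wfs1 stood at 182, 476 and 486 CPM in WT 1, 2 and 3. Of the 5 dentate gyrus markers C1ql2 was called higher (0.44, SE 0.080, edgeR adjusted p = 0.0293), while 3 of the 5 lay below 0 and the list median was -0.14, with sums of 442 to 629 CPM in WT and 516 to 563 CPM in HET. Of the 4 CA3 markers none was called, 2 had an unadjusted p under 0.05, and 2 lay above and 2 below 0. Their sums were 1294 to 1342 CPM in WT and 1085 to 1321 CPM in HET. Of the 8 markers of vascular mural cells, which wrap small blood vessels, 7 lay below 0 with a median of -0.25, 4 had an unadjusted p under 0.05, and 1, Cspg4 (-0.59, SE 0.080, edgeR adjusted p = 0.00573), was called lower. Their summed CPM was 120 to 134 in WT and 99.4 to 104 in HET, without overlap, and none of them was at 0. The 7 oligodendrocyte lineage markers all lay above 0, with 0 called and overlapping sums of 5749 to 7184 and 6167 to 8895 CPM. The part of these markers in the values of Cacna1g, Cacna1i and Cacna1c was not tested.

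**Figure D4:**
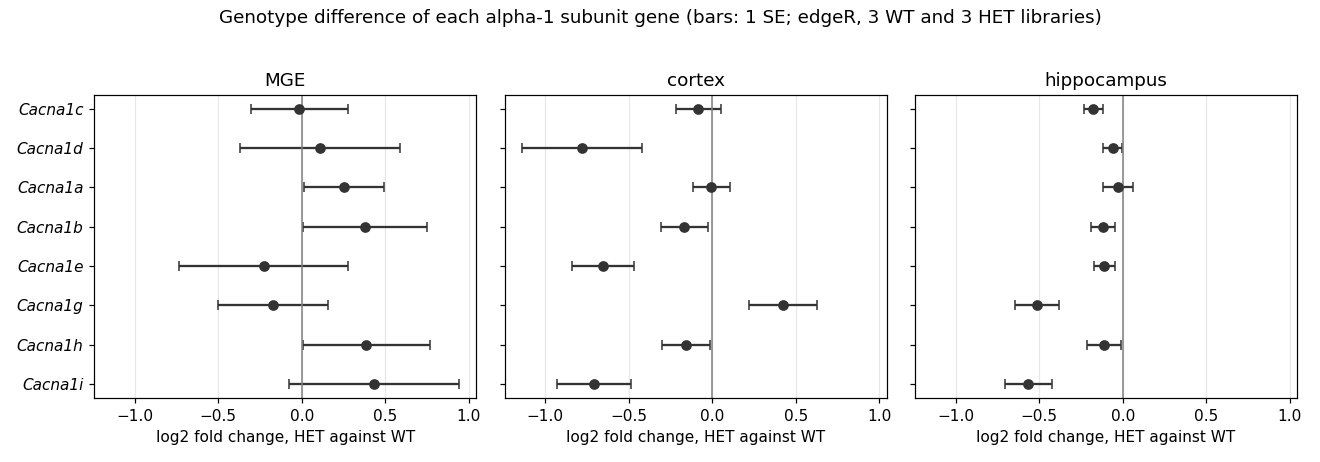
Log2 fold change of HET against WT for each alpha-1 subunit gene (points; bars are 1 SE of the edgeR fit of 3 WT and 3 HET libraries) in MGE, cortex and hippocampus. Cacna1d, Cacna1e and Cacna1i lie lowest in cortex, and Cacna1g and Cacna1i lie lowest in hippocampus.

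Whether the genotype difference itself differed between tissues was tested as an interaction over all 18 libraries, and 0 of 8 members passed in any of the 3 contrasts with edgeR, DESeq2 or limma-voom. The edgeR fit called 0%, 0.0062% and 0.0124% of 16125 genes in cortex minus MGE, hippocampus minus MGE and hippocampus minus cortex. An unadjusted p under 0.05 was reached by 1 member in each (7.01, 7.36 and 12.8% of genes). Cacna1i had -1.14 (SE 0.50, edgeR adjusted p = 0.710) in cortex minus MGE and -0.996 (SE 0.46, edgeR adjusted p = 0.666) in hippocampus minus MGE. In hippocampus minus cortex it was Cacna1g, with the value of -0.92 given above, from 0.42 in cortex and -0.51 in hippocampus.

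The cytosolic beta subunits bind the alpha-1 subunits of the Cav1 and Cav2 channels. All 4 were called higher in WT hippocampus than in WT cortex, where 40.2% of all genes were. The steps on the log2 scale were 3.87 (SE 0.11) for Cacnb2, 2.58 (0.11) for Cacnb4, 2.53 (0.084) for Cacnb1 and 1.28 (0.088) for Cacnb3. Cacnb3 was at 102 to 142 CPM in the embryonic WT libraries and at 239 to 271 CPM in WT hippocampus, and Cacnb2 at 5.03 to 8.37 and 78.2 to 81.3 CPM. Between MGE and cortex in WT, Cacnb2 (0.46) and Cacnb4 (0.38) were called higher (24.6% of genes) and Cacnb1 (-0.30) lower in MGE (25.7%). By genotype 0 of 4 passed in any tissue with edgeR, DESeq2 or limma-voom, and only Cacnb1 in hippocampus had an unadjusted p under 0.05 (-0.19, SE 0.054, edgeR adjusted p = 0.126). Cacnb4 stood at 11.1, 8.33 and 20.6 CPM in HET cortex beside 19.8 to 23.4 CPM in WT, with HET 3 inside the WT range.

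The extracellular alpha-2-delta subunits did not share a pattern. Cacna2d1, a receptor of gabapentinoid drugs, stood at 5.37 to 6.41 CPM in WT MGE, 79.5 to 91.0 CPM in WT cortex and 188 to 198 CPM in WT hippocampus. Its log2 fold change in MGE against cortex was -3.84, SE 0.088, a larger step than that of any alpha-1 member between these tissues. Cacna2d3 was called higher in WT hippocampus than in cortex (3.48, SE 0.17), as was Cacna2d4 (4.40, SE 0.52), which stood at 3.71 CPM or less in every library. Cacna2d2 was not called between WT hippocampus and WT cortex (0.097, SE 0.20, edgeR adjusted p = 0.662), and stood at 32.2 CPM or more in WT MGE and at 29.3 CPM or less in WT hippocampus. By genotype 0 of the 3 or 4 tested members passed in any tissue with edgeR, DESeq2 or limma-voom, and only Cacna2d3 in hippocampus had an unadjusted p under 0.05 (0.14, SE 0.058, edgeR adjusted p = 0.277).

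**Figure D5:**
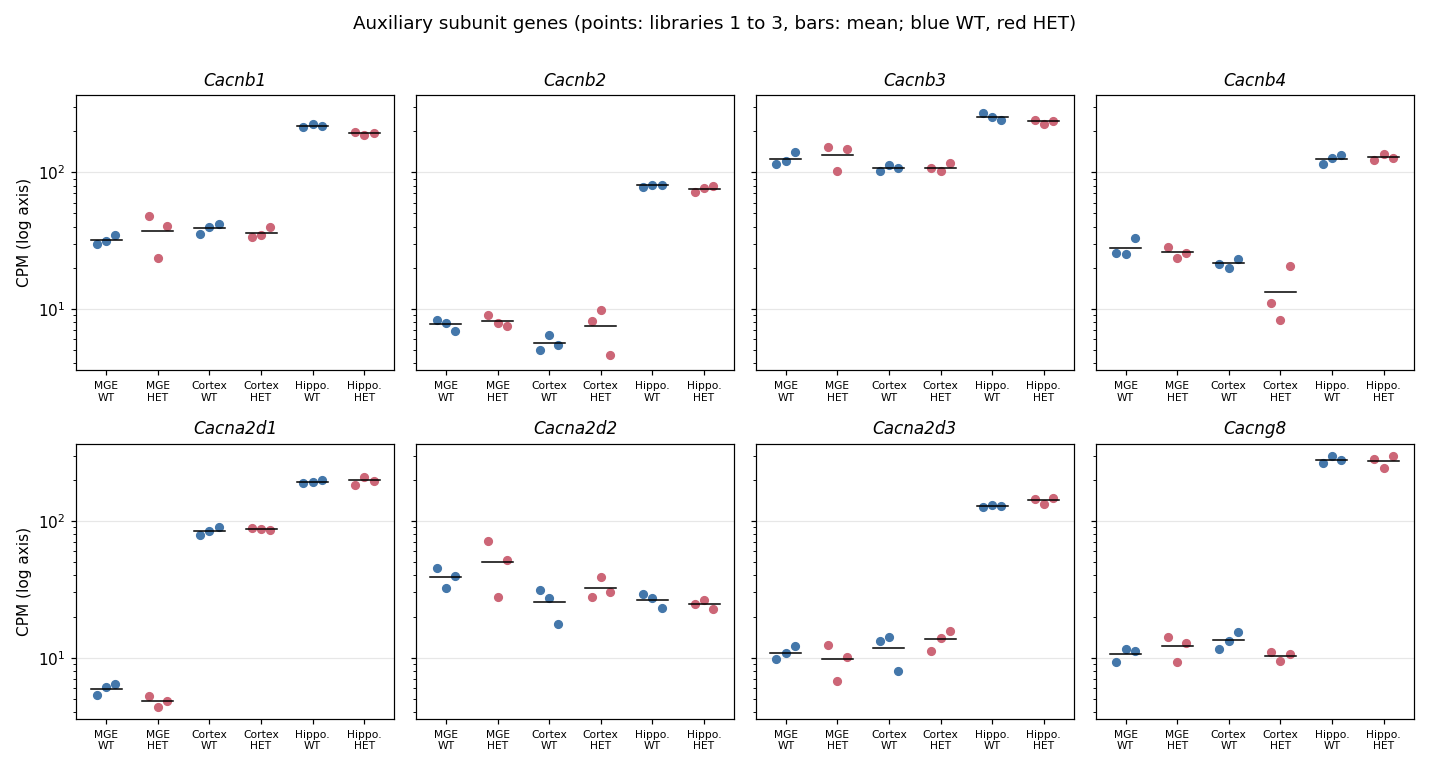
CPM on a log axis of auxiliary subunit genes in the 3 libraries of each group (points, WT and HET in separate colours; bars are means). Cacna2d1 is low in MGE (4.39 to 6.41 CPM) and high in cortex (79.5 to 91.0 CPM), and the 3 WT hippocampal libraries of Cacna2d2 lie below its 3 WT MGE libraries.

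Most of the gamma family are TARPs, which traffic AMPA receptors. Of 6 tested members 5 were called higher and 1 lower in WT hippocampus than in cortex, where 40.2% of all genes were higher and 40.7% lower: Cacng8 (4.43, SE 0.12), Cacng2 (4.34, SE 0.23) and Cacng3 (5.76, SE 0.31) rose, while Cacng4 was lower (-1.84, SE 0.089). Among the genes that restrain or tune channel gating, 7 of 10 were called higher and 2 lower in the same comparison, beside the same shares of all genes. Among those with the lowest p were Stac2 (5.40, SE 0.13), Calm3 (2.31, SE 0.062), which encodes calmodulin, and Rem2 (2.39, SE 0.15). In cortex Gem, a small GTPase that inhibits channel activity, stood at 5.98, 4.78 and 7.60 CPM in HET beside 8.79 to 10.2 CPM in WT (-0.64, SE 0.20, edgeR adjusted p = 0.578).

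All 8 presynaptic partners of the Cav2 channels were called higher in WT hippocampus than in cortex (40.2% of all genes), with a median of 3.90. Rims1 (5.08, SE 0.13), Syt1 (5.31, SE 0.13), Rimbp2 (5.64, SE 0.17) and Snap25 (5.23, SE 0.17) had larger fold changes than any alpha-1 member in that comparison. Of 14 genes of calcium-dependent signalling 12 were called higher and 2 lower (40.2 and 40.7% of all genes), with the lowest p in Camk2a (8.94, SE 0.16), Camkk1 (5.04, SE 0.11), Camk2b (5.45, SE 0.14) and Ppp3ca (4.60, SE 0.13). The list medians in that comparison were 2.56 for the beta, 2.35 for the alpha-2-delta and 3.76 for the gamma genes, 1.59 for the modulators and 2.60 for the signalling genes, beside -0.013 over all genes. By genotype 0 members of the gamma, modulator, presynaptic and signalling lists passed in any tissue with edgeR or limma-voom, and DESeq2 called 1, Crtc1 in hippocampus. In MGE, cortex and hippocampus an unadjusted p under 0.05 was reached by 1, 1 and 1 gamma genes, 2, 1 and 2 modulators, 0, 0 and 1 presynaptic genes and 0, 0 and 3 signalling genes. The lowest edgeR adjusted p among them was 0.120, of Crtc1 in hippocampus (-0.24, SE 0.066). The alpha-1 genes Cacna1f of the retina and Cacna1s of skeletal muscle stood at 1.81 CPM or less in every library. Nalcn, the sodium leak channel related to this family, was called higher in WT hippocampus (4.53, SE 0.16) and in WT MGE (2.55, SE 0.16) than in WT cortex.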

How the data were processed

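Whole-number counts per gene symbol in 18 libraries were used as deposited, grouped by the titles of the labels. Per the labels' protocols, RNA was extracted with Trizol and poly(A)-selected libraries were made with a NEBNext Ultra kit. Per the submitters' processing notes, the tools were FastQC, Trimmomatic, TopHat2 2.1.1, SAMtools and DESeq2, with mm10. Neither the counting program nor its annotation or use of strand is given in the sources used here.

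edgeR 4.0.16 (R 4.3.3) tested all genes past filterByExpr (minimum count 10, minimum total 15) with TMM scaling and robust quasi-likelihood F tests. Each tissue was fitted alone for genotype, each genotype over its 9 libraries for tissue, and all 18 libraries for interactions. Benjamini-Hochberg adjustment ran over all genes of a fit, with a threshold of 0.05. The SE is the absolute log2 fold change divided by the square root of F. Log2 CPM used a prior count of 2. Lengths came from GENCODE M21 and promoters from RefSeq. DESeq2 1.42.0, limma-voom (limma 3.58.1) and other scalings and filters were alternatives. The procedure was tested on simulated data. Members and gene lists were chosen with earlier results of these data known.

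All 8 members were named, with beta and alpha-2-delta subunits and, from the other related lists, up to 4 genes with the lowest p in a comparison; some genes this rule selects are not reported here. Cacna1f, Cacna1s and the hippocampal field markers given with values were named after their values were seen.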

Additional observations from a re-analysis of the deposited data

How the results depend on the processing

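Other tools (DESeq2, limma-voom), other scalings (upper-quartile, RLE), every gene without a filter, a joint fit of the 18 libraries, a replicate block and the loss of each library in turn were tried, and, added after seeing the data, the neuron marker level as a covariate, column totals in place of TMM and other gene lengths. Upper-quartile scaling moved the median of all genes in hippocampus against cortex in WT from -0.013 to -0.11. In hippocampus DESeq2 called 2 members by genotype against 0. The replicate block also called 2, Cacna1g (edgeR adjusted p = 0.0267) and Cacna1i (0.00769), in a fit that called 80 of 15283 genes. Correlations of -0.226 to 0.120 between same-numbered libraries do not show that the numbers pair them. The block left the number of members called in each other comparison as it was. Leaving out each library gave 0 to 4 members called by genotype in cortex, 0 to 2 in hippocampus and 1 to 6 for MGE against cortex in HET. The same fits called 0 to 4598, 23 to 292 and 3589 to 5698 genes in all.

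Several values changed sign, none of them a called difference. By genotype in MGE, Cacna1d was -0.12 with limma-voom and -0.10 with the replicate block, and Cacna1c was 0.034 with the covariate. By genotype in cortex, the covariate gave 0.067 for Cacna1a and 0.046 for Cacna1h. Upper-quartile scaling gave -0.047 for Cacna1b in MGE against cortex in WT. Leaving out each library gave, by genotype in MGE, -0.29 to 0.28 for Cacna1c, -0.59 to 0.48 for Cacna1d, -0.82 to 0.16 for Cacna1e, -0.46 to 0.12 for Cacna1g and -0.28 to 0.81 for Cacna1i. For Cacna1a it gave -0.064 to 0.048 by genotype in cortex, -0.11 to 0.070 in hippocampus and -0.28 to 0.20 for MGE against cortex in HET, where Cacna1h ran from -0.058 to 0.56. Cacna1b in MGE against cortex in WT ran from -0.082 to 0.10. Apart from the libraries named, the cause of these changes was not tested.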
